A study of Homo sapiens with 6 samples.

Results

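Integrins are receptors by which a cell holds on to the surrounding matrix, and this account covers 10 integrin subunit genes of epithelial and matrix-adherent cells, ITGA2, ITGA3, ITGA5, ITGA6, ITGAV, ITGB1, ITGB3, ITGB4, ITGB5 and ITGB8. They were taken by symbol from a table of 57905 genes, in which 11 entries carried one of these symbols. The extra entry was a second identifier for ITGB3 (ENSG00000259753), with 0 counts in all 6 libraries. All 10 genes passed the filter on low counts and were tested among 15343 genes. RNA-seq was performed on HK-2 cells, an immortalized human proximal tubular cell line of the WT genotype. In 3 libraries the cells had received a pool of siRNAs against INO80, the catalytic subunit of a chromatin-remodeling complex, and in 3 libraries a non-targeting control siRNA pool. All 6 shared transfection with RNAiMAX and harvest after 48 h. The cells are 1 line, and the labels do not say whether the libraries of a group came from separate cultures, so p-values measure only the spread between these libraries, which may be technical.

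Each integrin is a pair of 1 alpha and 1 beta subunit, and the pair decides which matrix protein is bound. ITGAV with its beta partners and ITGA5 with ITGB1 recognise the RGD sequence of fibronectin, vitronectin and other ligands. ITGA3 with ITGB1 and ITGA6 with ITGB1 or ITGB4 bind laminins of the basement membrane, and ITGA2 with ITGB1 binds collagens. In renal tubules these receptors anchor the epithelium to its basement membrane, and those that pair ITGAV with ITGB6 or ITGB8 also release TGF-beta from its latent form.

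With the replicate number in the model, a pairing the labels do not state, 6 members passed the threshold, against 24.8% of all tested genes. With the treatment alone 0 members did, against 1.75% of all tested genes. The promoters of 4 of those 6 are shown first. The letters before the start site are what these 4 genes can be compared on beside their levels. RefSeq sequences on GRCh38.p14 matched 7 of the 10 genes, and ITGA3, ITGB3 and ITGB4 had no entry, of which ITGB3 and ITGB4 had also passed. The 250 bases before the start site are printed 5′ to 3′ on the gene's strand, and capitals mark GC boxes (GGGCGG, read on both strands, so that CCGCCC is the same motif).
ITGB5, chr3:124887366-124887615, minus strand: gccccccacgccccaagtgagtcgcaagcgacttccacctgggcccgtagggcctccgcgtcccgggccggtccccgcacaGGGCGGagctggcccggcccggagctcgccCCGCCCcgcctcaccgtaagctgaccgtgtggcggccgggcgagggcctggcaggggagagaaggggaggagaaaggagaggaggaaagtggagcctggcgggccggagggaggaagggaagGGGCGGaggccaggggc
ITGA5, chr12:54419267-54419516, minus strand: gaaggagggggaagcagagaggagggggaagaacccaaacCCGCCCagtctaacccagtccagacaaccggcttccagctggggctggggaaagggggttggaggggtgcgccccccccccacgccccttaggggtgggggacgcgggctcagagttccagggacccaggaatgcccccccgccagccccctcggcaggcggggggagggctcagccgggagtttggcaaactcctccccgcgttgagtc
ITGA2, chr5:52989102-52989351, plus strand: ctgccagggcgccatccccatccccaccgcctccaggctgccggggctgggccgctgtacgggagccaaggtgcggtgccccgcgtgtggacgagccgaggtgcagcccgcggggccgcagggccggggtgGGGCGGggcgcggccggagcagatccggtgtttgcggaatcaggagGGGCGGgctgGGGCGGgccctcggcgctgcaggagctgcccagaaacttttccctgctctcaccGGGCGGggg
ITGA6, chr2:172427336-172427585, plus strand: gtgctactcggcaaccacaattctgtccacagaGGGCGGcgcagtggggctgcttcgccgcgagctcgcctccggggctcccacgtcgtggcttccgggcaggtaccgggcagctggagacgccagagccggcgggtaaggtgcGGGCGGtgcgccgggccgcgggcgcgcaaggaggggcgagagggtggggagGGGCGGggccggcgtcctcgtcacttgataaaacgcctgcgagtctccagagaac
A GC box was present in 6 of the 7 promoters, with 4 in ITGA2, 3 each in ITGA6, ITGB1 and ITGB5, 2 in ITGB8 and 1 in ITGA5. ITGAV had none. Among 35116 RefSeq promoters of the same length, 42.6% held this motif. The 7 promoters were GC-rich, at 70.0% to 78.4% against a median of 58% over all promoters. A CCAAT box was found in ITGB8 alone, against 32.0% of all promoters. The AP-1 motif TGANTCA, the YY1 core GCCATNTT and the TATA box TATAAA were searched on both strands and matched in none of the 7, against 6.57%, 3.86% and 10.7% of all promoters. These matches are descriptions of letters in this window and not of binding.

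Depth and labels were checked before the integrins were compared. Between 16829273 and 23784599 reads were counted on genes per library. The targeted gene INO80 had 46.3, 49.3 and 54.0 CPM (read counts scaled to library size, with TMM factors) in control replicates 1, 2 and 3, and 13.8, 12.05 and 14.2 CPM after INO80 siRNA. INO80 fell by 1.90 on the log2 scale (SE 0.0956, edgeR adjusted p = 1.61e-04), to 0.267 times the control level. HK-2 cells expressed keratin and epithelial transcripts (KRT19, mean 208 FPKM; KRT8, 89.8; EPCAM, 41.2), whereas CDH1 was at 0.04 FPKM. Of 9 proximal tubule markers, 7 were under 1 FPKM, among them LRP2 and SLC22A6 at 0, and GGT1, a brush border enzyme, was at 39.1 FPKM. Marker lists of other cell types summed to 0 to 0.03 FPKM for endothelium (CDH5 the highest), 0.25 to 0.63 for leukocytes (CD68 the highest) and 0.04 to 0.27 for platelets (GP1BA the highest), and PECAM1 was not analysed here. The 4 fibroblast markers summed to 46.47 to 111.04 FPKM in control libraries and 43.82 to 95.06 after INO80 siRNA, almost wholly from the matrix proteoglycan LUM (mean 66.7 FPKM), while PDGFRA was at 0.00167 FPKM. With the replicate number as a block, a pairing the labels do not state, 24.8% of all tested genes were called at an adjusted p under 0.05. In that fit LUM was called lower, with a log2 fold change of -0.14 (edgeR adjusted p = 0.0124). DCN was called higher (0.32, edgeR adjusted p = 0.00771), and PDGFRB, the other tested fibroblast marker, was not called (0.07). Of the 5 tested keratin and epithelial genes, EPCAM (-0.31) and KRT19 (-0.23) were called lower with the block and KRT18 (0.19) higher. KRT7 (0.15) and KRT8 (0.04) were not called. With the treatment alone none of these fibroblast, keratin and epithelial genes was called. The edgeR adjusted p was then 0.875 for LUM, 0.910 for DCN, 0.114 for EPCAM, 0.671 for KRT19 and 0.410 for KRT18. The part of these transcripts in the integrin results was not tested.

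The comparison asked whether the integrin transcripts differed between INO80 and control siRNA. Counts were tested by edgeR's quasi-likelihood method with the treatment alone, and p-values were adjusted over all tested genes, with a gene called at an adjusted p under 0.05. Deviations from the group means correlated most between libraries of the same replicate number, so values with the replicate number as a block are given beside them. The labels do not say what this number stands for, so the pairing is assumed. With the treatment alone, 0 of 10 integrins were called, against 1.75% of all tested genes (1.49% lower and 0.261% higher). Of the 10, 2 had an unadjusted p under 0.05, ITGB4 and ITGB5. The share of all tested genes under that unadjusted p is not given here. DESeq2 with the treatment alone called the same 2 integrins, and it called 618 genes in all, against 268 with edgeR. With the block, 6 of 10 were called, against 24.8% of all tested genes. ITGA2, ITGA6, ITGB3 and ITGB5 were lower (13.4% of all genes) and ITGA5 and ITGB4 were higher (11.4% of all genes). The 10 members were chosen with earlier results of these data known, so these shares are a description and not a test. The median log2 fold change of the 10 was -0.08 with the treatment alone, beside 0.01 over all tested genes. No member's estimate exceeded 0.54 on the log2 scale in either direction.

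The levels of the integrins spanned a wide range. On FPKM, which divides by transcript length and so allows genes to be compared, the control means were 239 for ITGB1, 159 for ITGAV, 90.0 for ITGA3, 44.5 for ITGB5, 44.5 for ITGB3, 41.0 for ITGA5, 3.63 for ITGB8, 2.68 for ITGB4, 2.17 for ITGA6 and 0.683 for ITGA2. ITGB1 exceeded 99.3% of tested genes and ITGA2 exceeded 13.8%. ITGB5, ITGB3 and ITGA5 overlapped their neighbours in this order across the control libraries, as did ITGB8 with ITGB4 and ITGB4 with ITGA6. The largest step lay between ITGA5 and ITGB8, 11.3-fold in mean FPKM, and separated 6 abundant subunits from 4 scarce ones. After INO80 siRNA the mean of ITGA5 (45.3 FPKM) stood above those of ITGB3 (38.6) and ITGB5 (37.1), and ITGB4 (3.48) stood above ITGB8 (3.35). ITGA5 still overlapped ITGB3, and ITGB4 no longer overlapped ITGA6.

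**Figure D1:**
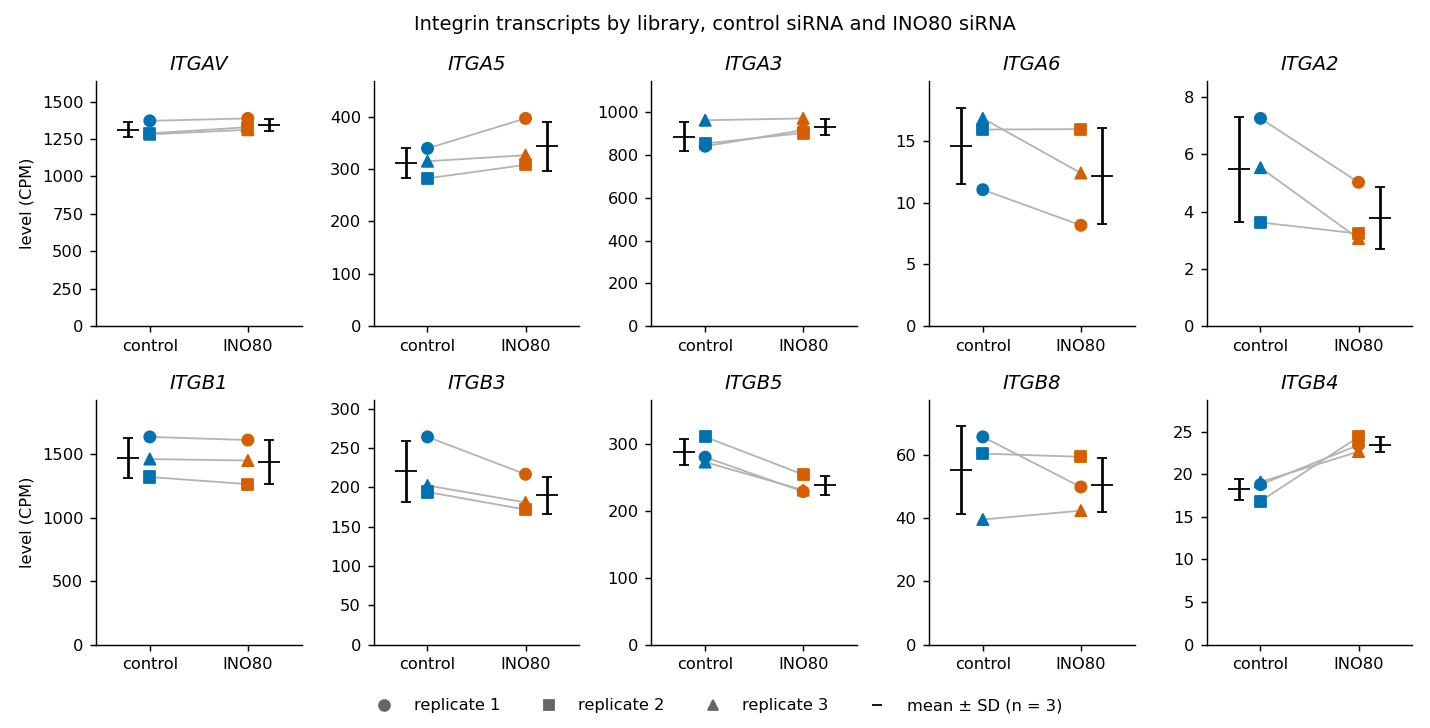
Level of each integrin transcript in TMM-scaled CPM (vertical axes from 0) in 3 control and 3 INO80 siRNA libraries, with lines joining libraries of the same replicate number and bars giving mean ± SD (n = 3). The groups separate for ITGB5, at 273 to 311 CPM against 229 to 254 CPM, and for ITGB4, at 16.8 to 19.1 CPM against 22.7 to 24.4 CPM, and overlap for the other 8.

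Among the RGD-binding integrins, ITGAV (ENSG00000138448, GRCh37 chromosome 2, 187454792 to 187545628) is the alpha subunit shared by several vitronectin receptors. It had 1372, 1288 and 1282 CPM in control replicates 1, 2 and 3, and 1388, 1329 and 1312 CPM after INO80 siRNA. The INO80 libraries lay slightly above the control library of the same number in all 3 pairs, and the groups overlapped. On the log2 scale the difference was 0.03 (SE 0.0562, edgeR adjusted p = 0.834), and with the block its 95% interval ran from -0.03 to 0.09.

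ITGB1 (ENSG00000150093, GRCh37 chromosome 10, 33189247 to 33294720) is the beta subunit shared by most matrix receptors. Control replicates 1, 2 and 3 had 1638, 1321 and 1463 CPM, and the INO80 siRNA replicates had 1613, 1265 and 1451 CPM. The spread was between replicate numbers, with replicate 1 highest and replicate 2 lowest under both siRNAs. The log2 fold change was -0.03 (SE 0.105, edgeR adjusted p = 0.923), and with the block the 95% interval was -0.09 to 0.03. Without control replicate 1 or without INO80 siRNA replicate 2 the estimate without the block was 0.05 or 0.06.

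ITGA5 (ENSG00000161638, GRCh37 chromosome 12, 54789045 to 54813244) forms the classical fibronectin receptor with ITGB1. It had 339, 282 and 315 CPM in control replicates 1, 2 and 3, and 397, 308 and 326 CPM after INO80 siRNA. Each INO80 library was above its control partner, but the groups overlapped, since control replicate 1 exceeded 2 of the INO80 libraries. Its estimated log2 fold change was 0.14 (SE 0.105, edgeR adjusted p = 0.574) with the treatment alone and 0.13 (SE 0.0360, adjusted p = 0.00684) with the block. Without replicate pair 1 the blocked value was 0.08 (edgeR adjusted p = 0.0191).

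ITGB5 (ENSG00000082781, GRCh37 chromosome 3, 124480795 to 124620265) pairs with ITGAV to bind vitronectin. Control replicates 1, 2 and 3 had 281, 311 and 273 CPM, and INO80 siRNA replicates had 229, 254 and 231 CPM. Every INO80 library was below every control library, which was so for 2 of the 10 integrins, 1 lower and 1 higher, and for 22.8% of all tested genes (11.5% lower and 11.3% higher). The log2 fold change was -0.28 (SE 0.0711, edgeR adjusted p = 0.104) with the treatment alone, and -0.27 (SE 0.0343, adjusted p = 1.15e-06) with the block, a level 0.827 times that of the control. The exact permutation p was 0.1, the smallest that 3 libraries against 3 allow.

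ITGB3 (ENSG00000259207, GRCh37 chromosome 17, 45331212 to 45421658) is the beta subunit of the vitronectin receptor with ITGAV and of the platelet fibrinogen receptor. It had 264, 194 and 202 CPM in control replicates 1, 2 and 3, and 217, 172 and 181 CPM after INO80 siRNA. Each INO80 library was below its control partner, while replicate 1 of INO80 siRNA remained above 2 of the control libraries. Its log2 difference was -0.21 (SE 0.130, edgeR adjusted p = 0.464) with the treatment alone and -0.21 (SE 0.0368, adjusted p = 1.25e-04) with the block.

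ITGB8 (ENSG00000105855, GRCh37 chromosome 7, 20370325 to 20455377) pairs with ITGAV to bind latent TGF-beta. It had 65.8, 60.5 and 39.6 CPM in control replicates 1, 2 and 3, and 49.9, 59.5 and 42.4 CPM after INO80 siRNA. The pairs did not move together, with 2 lower and 1 higher. The log2 fold change was -0.13 (SE 0.188, edgeR adjusted p = 0.797) and with the block -0.11, with a 95% interval of -0.24 to 0.02. Its sign turned without control replicate 1 (0.01), and with the block without replicate pair 1 (0.03).

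Among the laminin-binding integrins, ITGA3 (ENSG00000005884, GRCh37 chromosome 17, 48133332 to 48167845) was the most abundant. It had 841, 854 and 963 CPM in control replicates 1, 2 and 3, and 917, 903 and 971 CPM after INO80 siRNA. The INO80 library was higher in all 3 pairs, by amounts smaller than the difference between control replicates 2 and 3. Its fold change on the log2 scale was 0.07 (SE 0.0685, edgeR adjusted p = 0.673) and was not called with the block either (0.07, adjusted p = 0.0997).

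ITGB4 (ENSG00000132470, GRCh37 chromosome 17, 73717408 to 73753899) is the hemidesmosomal beta subunit, whose long cytoplasmic tail binds plectin. Control replicates 1, 2 and 3 had 18.8, 16.8 and 19.1 CPM, and INO80 siRNA replicates had 23.4, 24.4 and 22.7 CPM, from 308 to 589 counts. The groups did not overlap and ITGB4 was the only member with all INO80 libraries above all controls. The log2 fold change was 0.37 (SE 0.0875, edgeR adjusted p = 0.0863) with the treatment alone, and 0.37 (SE 0.0771, adjusted p = 8.04e-04) with the block, a level 1.29 times that of the control. The exact permutation p was 0.1. ITGB4 overlaps GALK1 on the opposite strand, whose counts came to 110% of those of ITGB4, and the strand setting of the counting was not given in the sources used here. GALK1 had a log2 fold change of 0.12 (SE 0.122, edgeR adjusted p = 0.695), and its part in the ITGB4 value was not tested.

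ITGA6 (ENSG00000091409, GRCh37 chromosome 2, 173292082 to 173371181) is the alpha partner of ITGB4. It had 11.04, 15.9 and 16.8 CPM in control replicates 1, 2 and 3, and 8.16, 15.9 and 12.4 CPM after INO80 siRNA, from 164 to 385 counts. Pairs 1 and 3 were lower and pair 2 was nearly equal. Its log2 fold change was -0.26 (SE 0.244, edgeR adjusted p = 0.662) with the treatment alone and -0.27 (SE 0.0997, adjusted p = 0.0499) with the block. This call was kept in 1 of 3 blocked fits that left out a pair, with adjusted p from 0.00690 to 0.413, and it was lost with DESeq2 and the block (adjusted p = 0.258). Without replicate pair 1, 2 or 3 the blocked log2 fold change was -0.21, -0.44 or -0.17. The antisense gene AC093818.1 had counts equal to 29.3% of those of ITGA6 and a log2 fold change of 0.35 (SE 0.185, edgeR adjusted p = 0.402), and its part in the ITGA6 value was not tested.

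ITGA2 (ENSG00000164171, GRCh37 chromosome 5, 52285156 to 52390609), the collagen receptor subunit, was the least abundant, with 74 to 119 counts per library. It had 7.26, 3.62 and 5.53 CPM in control replicates 1, 2 and 3, and 5.02, 3.23 and 3.05 CPM after INO80 siRNA. Every INO80 library was below its control partner, and the groups overlapped. Its log2 fold change was -0.54 (SE 0.289, edgeR adjusted p = 0.410) with the treatment alone and -0.53 (SE 0.160, adjusted p = 0.0160) with the block. The call was lost without replicate pair 3 (adjusted p = 0.234), and with DESeq2 and the block (adjusted p = 0.187).

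**Figure D2:**
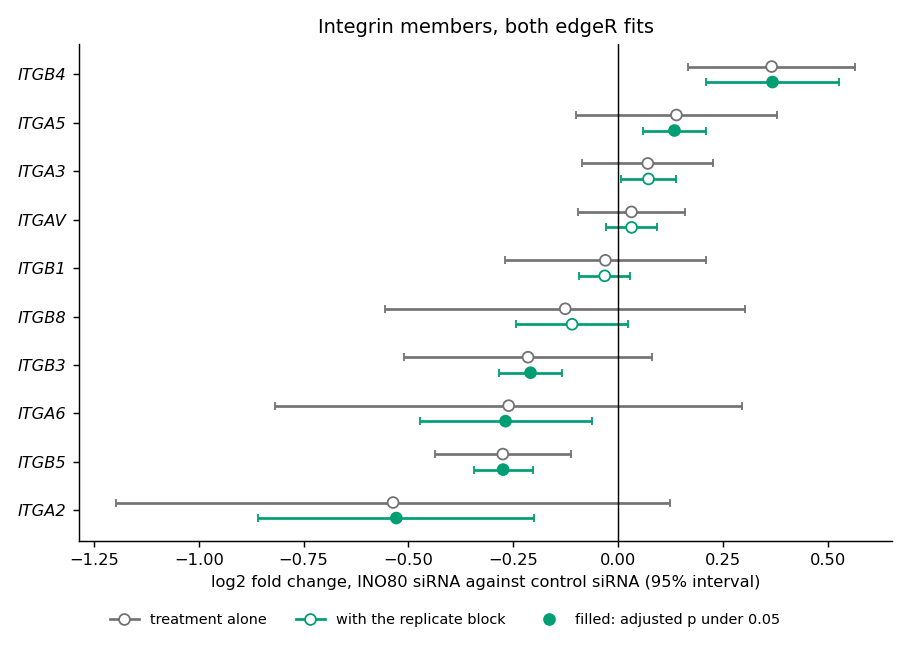
Log2 fold change of each integrin, INO80 siRNA against control siRNA, with 95% intervals from edgeR with the treatment alone (grey) and with the replicate block (green), filled where the adjusted p was under 0.05. The 6 filled points are ITGB4, ITGA5, ITGB3, ITGA6, ITGB5 and ITGA2, and none of the grey points is filled.

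Of the 10 integrins, 8 moved in 1 direction in all 3 replicate pairs, 4 lower and 4 higher, against 52.7% of all tested genes. The 2 others were ITGA6 and ITGB8. The sum of squares of log2 CPM over the 6 libraries was divided into treatment, replicate number and the rest. For 8 of 10 integrins more of it lay between replicate numbers than between treatments. Replicate number has 3 levels and treatment 2, which by itself favours the replicate share. The same count over all tested genes is not given here, so this is not shown to be a trait of the integrins. ITGB1 was the extreme, with 98.0% between replicate numbers and 1.38% between treatments. ITGB4 and ITGB5 were the exceptions, with 89.0% and 77.1% between treatments. Replicate 1 stood apart from replicates 2 and 3 in both groups for ITGA6 (-0.57 on the log2 scale under control siRNA and -0.78 under INO80 siRNA), ITGA2 (0.70 and 0.68), ITGB3 (0.41 and 0.30), ITGB1 (0.24 and 0.25) and ITGA5 (0.19 and 0.32). Those 5 genes are among the 8 with the larger replicate share.

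**Figure D3:**
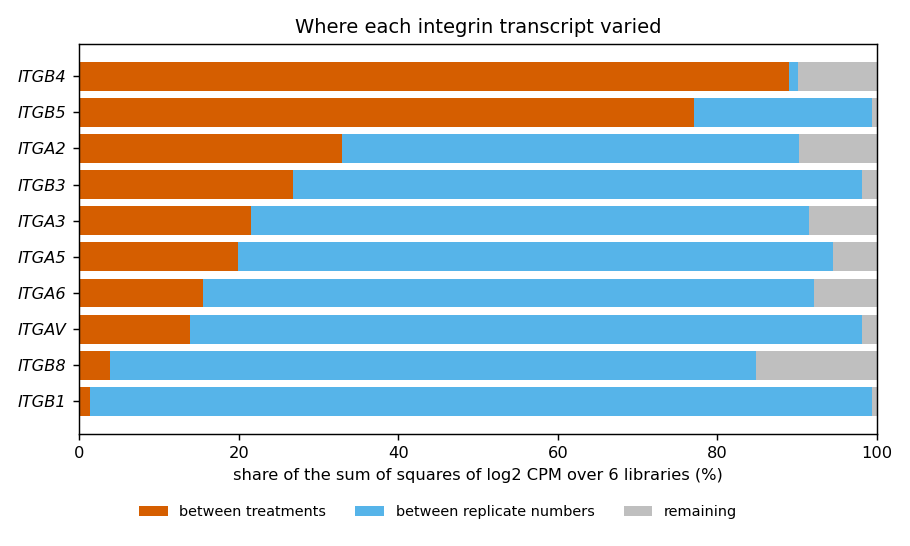
Share of the sum of squares of log2 CPM over 6 libraries (percent) that lay between treatments, between replicate numbers and in the remainder, for each integrin. The treatment share was 89.0% for ITGB4 and 77.1% for ITGB5, and at most 32.9% for the other 8.

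Since subunits work in pairs, the RNA levels of the possible partners were compared within each library on FPKM. These are shares of subunit RNA. ITGB1 and ITGAV each pair with several subunits, so the shares do not measure which pairs were formed. Among the beta partners of ITGAV, ITGB1 made up 71.5%, 68.9% and 72.3% of the summed level in control replicates 1, 2 and 3, and 74.9%, 71.0% and 74.2% after INO80 siRNA. The share was higher in all 3 pairs, and the groups overlapped (70.9% ± 1.77 against 73.4% ± 2.10, SD, n = 3, exact permutation p = 0.3). ITGB5 made up 13.3% ± 1.93 against 11.6% ± 1.77 (exact permutation p = 0.4) and ITGB3 13.2% ± 1.06 against 12.03% ± 0.503 (exact permutation p = 0.2). Within replicate pairs 1, 2 and 3, the ITGB5 share differed by -1.54, -1.84 and -1.59 percentage points, and the ITGB3 share by -1.84, -0.611 and -0.932. The ITGB1 share differed by 3.38, 2.07 and 1.98 points in the same pairs. These within-pair shifts were of 1 sign for each of the 3 subunits, although the groups overlapped, and the exact p above do not use the pairing. The ITGB6 share also rose in each pair, by 0.225, 0.312 and 0.454 points. Shares of a library have a fixed sum, so the 3 shifts are not independent. In CPM, ITGB1 itself was lower in all 3 pairs. ITGB6 and ITGB8, the subunits that bind latent TGF-beta, made up 1.59% and 1.08% in control libraries and 1.92% and 1.05% after INO80 siRNA.

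Among the alpha partners of ITGB1, ITGAV held 53.4% ± 1.83 under control siRNA and 52.5% ± 0.913 after INO80 siRNA (SD, n = 3, exact permutation p = 0.6). ITGA3 held 30.1% and 30.5%, and ITGA5 13.7% and 14.5% (exact permutation p = 0.8 and 0.6). ITGA4, ITGA6 and ITGA2 held 1.40%, 0.727% and 0.228% in control libraries. Every share of either subunit family overlapped between the groups when the replicate numbers were set aside.

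**Figure D4:**
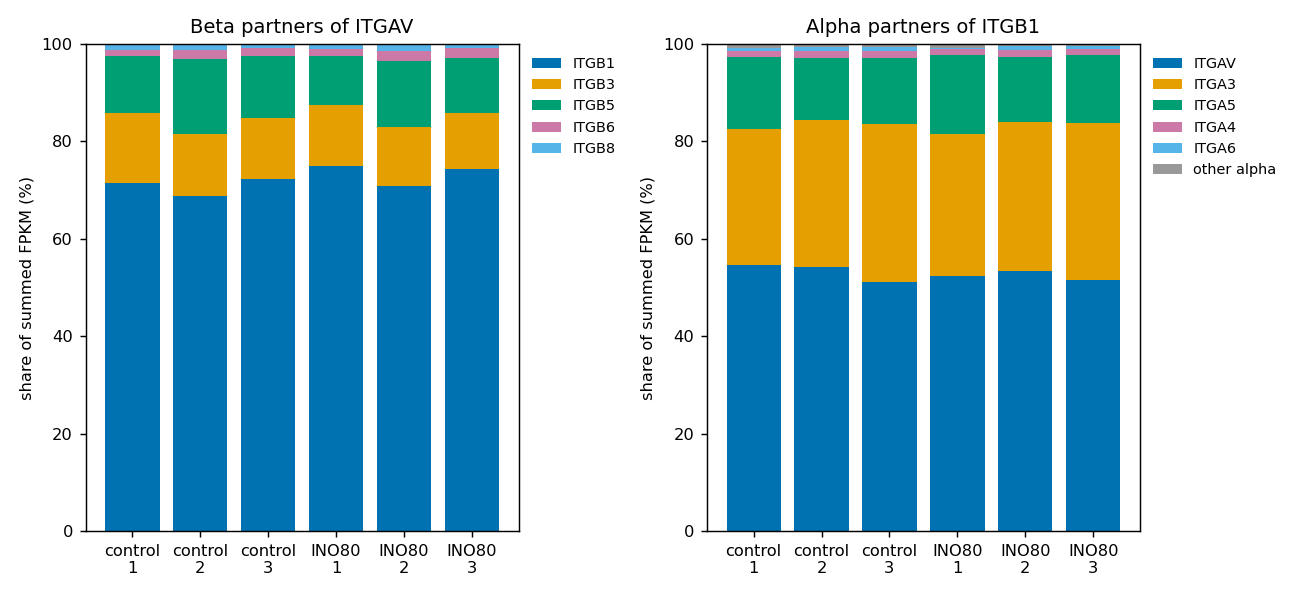
Share of the summed FPKM (percent, vertical axis) of the beta partners of ITGAV and of the alpha partners of ITGB1 in each of the 6 libraries. ITGB1 has the largest share of the beta subunit RNA at 68.9% to 74.9%, and ITGAV that of the alpha subunit RNA in every library. The ranges of both siRNAs overlap for every subunit, and the shares do not measure which pairs were formed.

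The other proteins of the adhesion system were examined in 6 lists of 94 genes, of which 81 were tested. With the treatment alone 2 were called, both lower and both in the focal adhesion list, and with the block 40 were called. Over all tested genes the shares called were 1.75% with the treatment alone and 24.8% with the block, of which 13.4% lower and 11.4% higher. The lists too were chosen with earlier results of these data known, so counts beside these shares are descriptions. Of the other 16 integrin subunits, 8 were tested and 0 were called with the treatment alone. ITGB6 was the most abundant of them (5.73 FPKM), followed by ITGA4 (4.09 FPKM) and ITGB2 (3.27 FPKM). ITGB6 was the 1 called with the block (0.19, adjusted p = 0.0211), and the median log2 fold change of the list was -0.06.

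The tail-binding proteins bind or act at integrin tails, and many but not all of them link the beta tail to actin. Of 13 tested, 0 were called with the treatment alone, and with the block 7 were lower and 0 higher (13.4% and 11.4% of all tested genes), with a median of -0.10. FLNA, an actin crosslinker, had a log2 fold change of -0.20 with the block (adjusted p = 1.16e-04), and TNS3, a tensin, -0.26 (adjusted p = 3.35e-05). VCL, vinculin, was called with the block too (-0.09, adjusted p = 0.0301). None of these 3 was called with the treatment alone in edgeR, where adjusted p ran from 0.0793 to 0.617.

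Of 20 focal adhesion signalling genes, 2 were lower and 0 higher with the treatment alone. TGFB1I1, a paxillin-family adaptor, fell by 0.46 on the log2 scale (SE 0.0775, edgeR adjusted p = 0.0311), from 137 ± 11.1 to 99.4 ± 6.29 CPM (SD, n = 3). LIMS1, the PINCH adaptor that joins integrin-linked kinase, fell by 0.28 (SE 0.0547, edgeR adjusted p = 0.0468), from 151 ± 4.45 to 124 ± 3.27 CPM. Over the 6 lists, 1 gene was called without either replicate 1 library, and 0 without any of the other 4 libraries. Within the focal adhesion list, 7 genes were lower and 4 higher with the block (13.4% and 11.4% of all tested genes). The lower ones included PXN, the scaffold paxillin (-0.24, adjusted p = 3.33e-05), and NEDD9, a Cas-family scaffold (-0.63, adjusted p = 4.78e-08), and the higher ones included PARVA, a parvin that binds integrin-linked kinase (0.19, adjusted p = 0.00153). ACTN1 and ACTN4, the crosslinking actinins, had -0.15 each with the block (adjusted p = 0.00313 and 0.00167), and ZYX had 0.03 (adjusted p = 0.628).

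The hemidesmosome list is the structure in which ITGA6 and ITGB4 sit. Of 7 genes, 0 were called with the treatment alone, and with the block 4 were lower and 0 higher (13.4% and 11.4% of all tested genes), with a median of -0.24. LAMB3, a chain of the laminin that this integrin binds, had a log2 fold change of -0.44 with the block (adjusted p = 1.24e-06). DST had -0.24 (adjusted p = 1.07e-04) and PLEC -0.10 (adjusted p = 0.0404), and the tetraspanin CD151 had 0.07 (adjusted p = 0.183). ITGB4 was higher with the block while LAMB3, DST and PLEC were lower.

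The integrin ligands comprised 22 tested genes, of which 0 were called with the treatment alone and 8 were lower and 6 higher with the block (13.4% and 11.4% of all tested genes), with a median of -0.02. FN1, fibronectin, was the most abundant (1490 FPKM) and had -0.10 with the block (adjusted p = 0.00756). TNC, tenascin, had -0.48 (adjusted p = 1.16e-09) and FBN1, fibrillin, -0.28 (adjusted p = 9.89e-07). LAMA5, a basement membrane laminin chain, had 0.28 (adjusted p = 6.31e-06) and SPP1, osteopontin, 0.12 (adjusted p = 0.0105), and CYR61, a matricellular ITGAV ligand, had -0.15 (adjusted p = 0.00173). These small p depend on the assumed pairing. Treatment alone gave edgeR adjusted p of 0.765 for TNC and 0.459 for FBN1. TNC had 193 ± 137 CPM in control and 141 ± 108 CPM in INO80 siRNA libraries (SD, n = 3).

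Of the 11 lateral membrane partners, 0 were called with the treatment alone, and with the block 2 were lower and 1 higher (13.4% and 11.4% of all tested genes). SDC1, a syndecan co-receptor, had -0.30 (adjusted p = 6.04e-07), PLAUR, the urokinase receptor, -0.26 (adjusted p = 4.47e-04) and CD81, a tetraspanin, 0.15 (adjusted p = 0.00235). The more abundant CD63, BSG and SDC4 had 0.07, 0.08 and -0.09 (adjusted p = 0.108, 0.0925 and 0.0624).

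**Figure D5:**
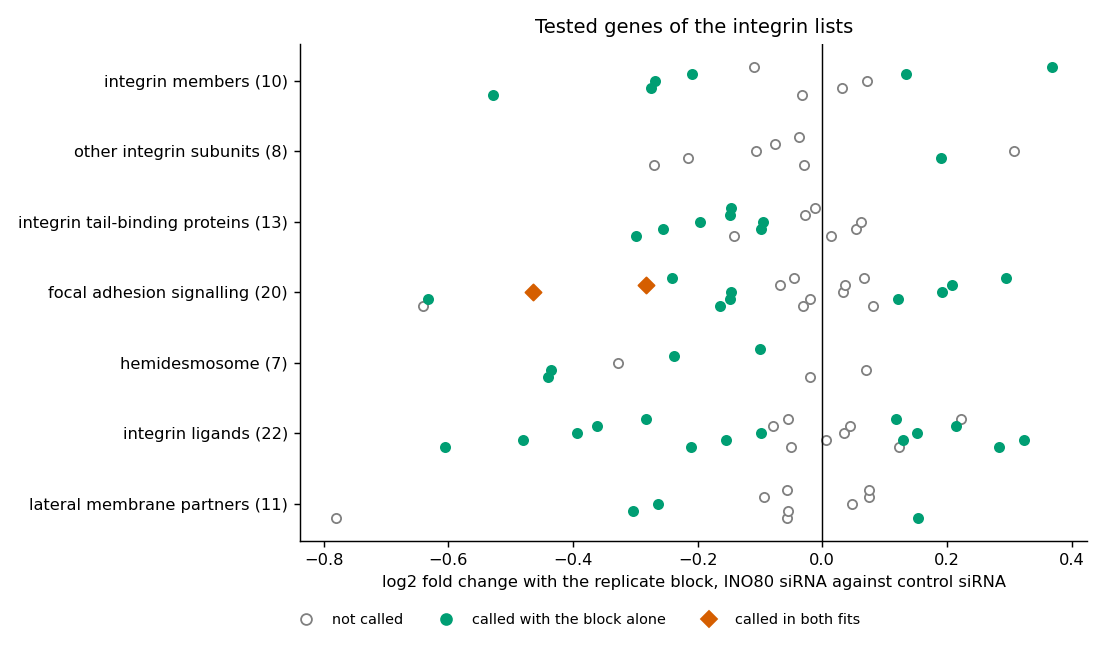
Log2 fold change with the replicate block (horizontal axis) of each tested gene of the integrins and of the 6 related lists, with the number tested in brackets. Orange diamonds are the 2 genes called in both fits, LIMS1 and TGFB1I1, green points were called with the block alone and open points were not called.

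The genes most like ITGB4, the integrin with the smallest p with the treatment alone (with the block it was ITGB5), were taken by Pearson's r of log2 CPM over the 6 libraries. They were DNAJC16 (0.995), ATXN1L (0.994), TMEM248 (0.992), SLC35D2 (0.990) and BRMS1L (0.985), with edgeR adjusted p from 0.0958 to 0.316. These are the highest of 15343 values and share the same libraries. Within the integrins, the strongest correlations over the 6 libraries were -0.943 for ITGA3 with ITGB8, 0.925 for ITGA2 with ITGB3 and -0.920 for ITGA5 with ITGA6. The part of the replicate numbers in these values was not tested.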

How the data were processed

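RNA-seq libraries of HK-2 cells were compared, 3 per siRNA. The authors deposited 1 gene table with raw counts and FPKM. Their notes name HISAT2 2.0.1, HTSeq and hg19, whereas the paper names ELAND and hg38, and the table's coordinates are those of GRCh37. The deposited FPKM equal the count over exonic length and library total, within a tolerance of 0.011. Library totals were 16829273 to 23784599 counts.

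Counts were tested in R 4.3.3 with edgeR 4.0.16 (filterByExpr, TMM, quasi-likelihood, Benjamini-Hochberg over 15343 genes), with DESeq2 1.42.0 as an alternative. On data simulated for this comparison (15343 genes, 200 changed by 1.5 on the log2 scale, larger than any integrin estimate), edgeR with treatment alone recovered 200 with 8 false calls without a pair effect and 199 with 0 false calls with one. With a pair effect, the blocked fit recovered 200 with 6 false calls. Standard errors are the size of the fold change over the root of F, and 95% intervals use edgeR's moderated degrees of freedom. Single values were compared by exact two-sided permutation. Across genes, deviations from the group mean correlated at 0.569, 0.351 and 0.349 between same-numbered libraries, each over the set minimum of 0.1. Other pairings ranged from -0.389 to 0.151. Control replicate 2 with INO80 replicate 3 (0.151) and control replicate 3 with INO80 replicate 2 (0.135) also passed that minimum. The labels do not say what a replicate number stands for, so the block assumes the pairing. Replicates differed by more than sampling noise (chi-square per degree of freedom 7.47 to 22.4).

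The members and lists were chosen with earlier results of these data known. Named genes were the 10 members, INO80, and from each list the 3 most abundant, every called gene and up to 3 with the smallest p called only with the block, with the highest of each marker list and the 5 genes most like the member with the smallest p. Results for some of these genes are not reported here. Other marker genes are named to describe the cells. Alternatives were scaling, filter, DESeq2, call rules, FPKM for levels, count shares, the block and each library or pair left out.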

Additional observations from a re-analysis of the deposited data

How the results depend on the processing

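The number of integrins called was 0 with the treatment alone, and remained 0 with median ratio scaling, with an added fold limit and without any 1 library. It was 2 with DESeq2 (ITGB4 and ITGB5), 1 without a filter (ITGB5), 1 at an adjusted p under 0.1 (ITGB4), 6 with the replicate block, 6 with the block and median ratio scaling, and 4 with DESeq2 and the block. With the block and without replicate pair 1, 2 or 3 it was 5, 6 or 4. Among all genes, 268 were called, and under the same settings 618 with DESeq2, 708 without a filter, 603 at an adjusted p under 0.1, 14 with a log2 fold limit of 1, 3798 with the block, 3831 with the block and median ratio scaling, 1717 with DESeq2 and the block, 3978, 2623 or 2251 with the block and without pair 1, 2 or 3, and 18 to 146 without 1 library. In the 6 lists the 2 calls became 4 with DESeq2, 9 without a filter, 40 with the block, 42 with the block and median ratio scaling, 25 with DESeq2 and the block, 42, 29 or 24 with the block and without pair 1, 2 or 3, and 0 to 1 without 1 library. The cause of these differences was not tested.

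ITGB5, ITGB4, ITGB3 and ITGA5 were called in all 3 blocked fits that left out a pair. Without 1 library, the log2 fold change of ITGB1 ran from -0.12 to 0.057 and that of ITGB8 from -0.32 to 0.015, so their signs were not fixed. Other estimates without the block kept their sign but moved by over 1.5 times, with ranges of -0.32 to -0.064 for ITGB3, 0.024 to 0.21 for ITGA5, -0.50 to -0.048 for ITGA6, -0.79 to -0.29 for ITGA2, 0.035 to 0.13 for ITGA3 and 0.0076 to 0.064 for ITGAV. Those of ITGB4 and ITGB5 moved less, at 0.31 to 0.40 and -0.32 to -0.22. ITGB8 was also at 0.026 with the block and without replicate pair 1. Depth limits ITGA2 (74 to 119 counts), ITGA6 and ITGB4 most.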
